A study of Mus musculus with 9 samples.

Results

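Mitochondria carry ribosomes of their own, and the proteins of these mitoribosomes are encoded by nuclear genes whose symbols start with Mrpl for the large subunit and Mrps for the small subunit. The genes described here were the rows of the deposited tables whose symbol is Mrpl or Mrps followed by a number and at most 1 letter. This rule found 78 of 43629 rows, 48 with Mrpl and 30 with Mrps symbols, and used no measured value. Of these, 76 (47 Mrpl and 29 Mrps) had a normalised count of at least 10 in 3 or more of the 9 libraries and are described below. The remaining rows were Mrpl53, with a value of 2.35 in LPS replicate 2, 1.12 in LPS+NaBu replicate 2 and 0 elsewhere, and a second identifier of Mrps23, which was at 0 in all 9 libraries.

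RAW264.7, the source of every library, is a macrophage-like mouse line grown from a virus-induced tumour, so that every group shares the genetic background of 1 established line. The libraries formed 3 groups of 3. They were untreated cells (Control), cells given the bacterial endotoxin lipopolysaccharide (LPS), and cells given both LPS and sodium butyrate (LPS+NaBu). Sodium butyrate is a salt of a short-chain fatty acid that gut bacteria make and that inhibits histone deacetylases. The study describes butyrate in these profiles as a pretreatment, and the labels do not give the order. There was no group given butyrate without LPS, and LPS+NaBu against LPS therefore compares stimulated cells with and without butyrate. That comparison shares the 3 LPS libraries with LPS against Control. A change with LPS and an opposite change with LPS+NaBu against LPS are therefore not independent results. Neither the doses nor the times are in the labels, and nothing in them says that replicates were separate cultures, and p-values then reflect only how far the libraries differed, possibly for technical reasons. The study asked how butyrate alters the response of macrophages to LPS.

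Each value is a gene's read count divided by 1 size factor per library (a normalised count), which corrects for sequencing depth and not for gene length, so levels are compared here between libraries and not between genes. Between 37625419 and 64380392 reads were recovered per library, and libraries of 1 group correlated at 0.987 to 0.993 on the log2 scale across genes. Differences are log2 changes of value + 1 with their standard error (SE) from limma, fitted to all 14808 genes that passed the same filter, and a gene was called higher or lower at a Benjamini-Hochberg adjusted p under 0.05 over all of these genes. The 8 macrophage markers measured summed to 415582 to 430688 in Control, 490988 to 513663 with LPS and 204924 to 222550 with LPS+NaBu, and all 8 were lower with LPS+NaBu than with LPS. The 8 fibroblast markers, of which Lum was at 0 in every library, summed to 6.36 to 12.1, 13.0 to 18.8 and 272 to 296. The T cell, B cell, epithelial, neutrophil and endothelial markers summed to at most 32.3, 50.9, 13.1, 112 and 65.3 in any library. The part of these marker levels in the results below was not tested.

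Mitoribosomes translate the few messages that mitochondrial DNA encodes, all of them for membrane subunits of the respiratory chain and ATP synthase, and the ribosomal RNAs they are built on are also made in the organelle. Their proteins are therefore made in the cytosol, imported and assembled in a fixed stoichiometry with RNA of another genome. Some descend from bacterial ribosomal proteins and sit at the functional centres, and others were acquired in the mitochondrial lineage and lie mostly at the surface. The promoters of these housekeeping genes are typically rich in GC and lack a TATA box, and many carry sites for ETS family factors such as GABP, for NRF1 and for YY1.

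The promoter sequences of the genes with the largest rises and falls under butyrate are shown because this gene set moved in both directions. RefSeq start sites gave windows of 300 bases, from 250 bases before the start, for 67 of the 76 genes (73 windows, table build GRCm38.p6), and each printed window matched the GRCm39 genome base for base. Capitals mark 2 motifs searched on both strands, ETS (CCGGAAG) and YY1 (AAGATGGC); NRF1 (GCGCATGC) and the E-box (CACGTG) were searched as well and were not found in these 6 windows. The 3 that rose most under butyrate come first, followed by the 3 that fell most among those with an entry. Mrps28 and Mrpl54 are named only.
Mrpl14 (chr17:45997025-45997324, plus strand): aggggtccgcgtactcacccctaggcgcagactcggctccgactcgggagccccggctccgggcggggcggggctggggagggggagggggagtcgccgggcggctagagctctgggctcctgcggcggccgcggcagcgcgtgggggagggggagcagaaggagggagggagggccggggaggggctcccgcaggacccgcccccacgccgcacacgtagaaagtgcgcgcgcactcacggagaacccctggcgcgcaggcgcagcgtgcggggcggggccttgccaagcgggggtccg
Mrpl49 (chr19:6107736-6108035, minus strand): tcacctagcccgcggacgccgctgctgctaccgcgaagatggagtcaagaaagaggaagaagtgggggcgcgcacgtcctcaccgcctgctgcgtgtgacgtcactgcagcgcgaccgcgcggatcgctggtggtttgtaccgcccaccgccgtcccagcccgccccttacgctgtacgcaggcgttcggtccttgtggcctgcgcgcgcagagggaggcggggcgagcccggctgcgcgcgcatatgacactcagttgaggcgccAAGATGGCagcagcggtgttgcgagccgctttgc
Mrps12 (chr7:28441197-28441496, minus strand): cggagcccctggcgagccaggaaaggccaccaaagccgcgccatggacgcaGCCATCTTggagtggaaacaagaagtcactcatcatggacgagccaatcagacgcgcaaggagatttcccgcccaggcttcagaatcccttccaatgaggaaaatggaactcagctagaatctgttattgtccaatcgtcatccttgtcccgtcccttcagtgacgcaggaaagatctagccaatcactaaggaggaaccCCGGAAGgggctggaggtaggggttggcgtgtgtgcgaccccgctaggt
Mrpl52 (chr14:54664116-54664415, plus strand): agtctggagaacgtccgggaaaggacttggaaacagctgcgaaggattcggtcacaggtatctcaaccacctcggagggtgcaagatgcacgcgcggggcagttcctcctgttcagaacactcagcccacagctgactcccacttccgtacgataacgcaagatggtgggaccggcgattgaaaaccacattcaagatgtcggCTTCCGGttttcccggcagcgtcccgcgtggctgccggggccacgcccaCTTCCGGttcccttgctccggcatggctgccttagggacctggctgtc
Mrpl3 (chr9:104930217-104930516, plus strand): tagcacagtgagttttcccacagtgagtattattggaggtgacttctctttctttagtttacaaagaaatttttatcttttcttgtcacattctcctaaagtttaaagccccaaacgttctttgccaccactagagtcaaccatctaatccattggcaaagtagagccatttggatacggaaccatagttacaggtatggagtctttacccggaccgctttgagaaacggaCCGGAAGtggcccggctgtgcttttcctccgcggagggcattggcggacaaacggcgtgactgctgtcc
Mrpl27 (chr11:94544367-94544666, plus strand): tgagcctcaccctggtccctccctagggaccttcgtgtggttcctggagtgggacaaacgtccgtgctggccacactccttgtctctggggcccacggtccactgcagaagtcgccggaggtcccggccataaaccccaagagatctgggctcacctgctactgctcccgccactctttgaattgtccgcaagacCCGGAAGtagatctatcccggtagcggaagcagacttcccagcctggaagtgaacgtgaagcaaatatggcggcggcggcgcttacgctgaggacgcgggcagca
The ETS motif lay at -47 and 2 in Mrpl52, at -19 in Mrpl3, at -55 in Mrpl27 and at 1 in Mrps12, counted as the distance of its first base from the annotated start. The Mrpl14 window held neither motif and was 78.0% G and C, against 46.3% in the Mrpl3 window. Over all windows the ETS motif was in 32.9% of those of mitochondrial ribosomal protein genes and in 16.7% of the 12647 windows of tested genes. YY1 letters were in 16.4% against 4.29%, NRF1 letters in 11.0% against 5.01%, and the E-box in 9.59% against 9.61%. Windows of genes called higher and called lower with LPS+NaBu against LPS held the ETS motif in the same share, 7 of 22 (31.8%) and 14 of 44 (31.8%), and YY1 letters in 3 and 7 of them. These are counts of letters and not of bound sites.

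LPS alone changed many of the 76 genes by little. Compared with Control, 14 were higher and 27 were lower, with a median log2 change of -0.10, while over all genes tested 25.2% were higher and 30.8% lower, with a median of -0.05. Only Mrpl52 changed 2-fold or more, and it rose (8.41% of all genes rose and 6.02% fell by at least 2-fold). Among Mrpl symbols 12 of 47 were higher and 15 lower, and among Mrps symbols 2 of 29 were higher and 12 lower. LPS replicate 1 had the lowest summed level of the 76 genes in its group (186358, against 210983 and 202036), and without it 17 were higher and 22 lower, with a median of -0.05. When every library was instead scaled to the same total, the median of all genes moved by -0.22 and the split became 7 higher and 54 lower, since LPS libraries hold more normalised counts in all. The median of the 76 differed from that of all genes by -0.06 under both scalings, by -0.0062 with quantile normalization, by -0.0099 without LPS replicate 1 and by -0.018 without Control replicate 1.

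Mrpl52, a large subunit protein with no bacterial counterpart (chr14:54664360-54668593), had the largest change of the set in both steps. It was at 2598, 2496 and 2630.3 in Control, at 9029.9, 10831 and 9900.2 with LPS and at 2476, 2586 and 2200.5 with LPS+NaBu. All 3 LPS libraries were above every other library, and the Control and LPS+NaBu ranges overlapped. It was 3.84-fold higher with LPS (log2 change 1.94 ± 0.07, adjusted p = 7.6e-11) and 4.09-fold lower with LPS+NaBu than with LPS (-2.03 ± 0.07, adjusted p = 1.8e-11). Against Control, LPS+NaBu differed by -0.09 ± 0.07 (adjusted p = 0.26). Its nearest protein-coding neighbour, the membrane matrix metalloprotease Mmp14, lies 285 bases away on the same strand and was at 0.667 ± 1.15, 66.1 ± 15.0 and 8.44 ± 2.72 (SD, n = 3).

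**Figure D1:**
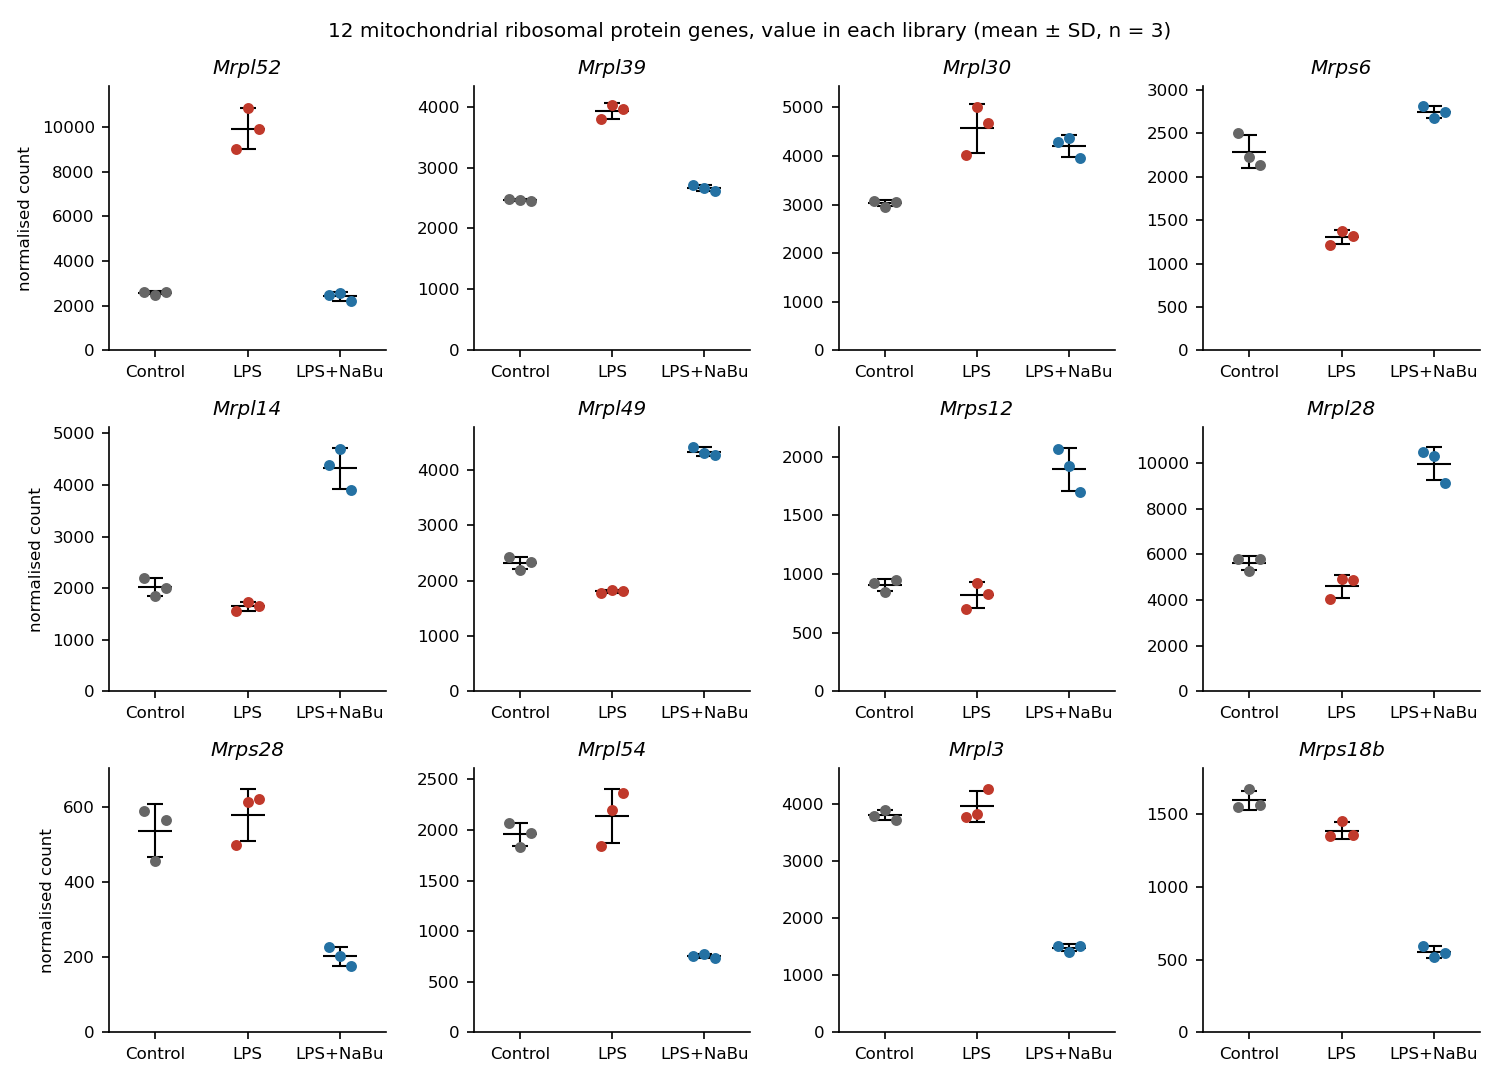
Normalised count (vertical axes, from 0) of 12 mitochondrial ribosomal protein genes in each of the 9 libraries, with 1 point per library and the mean ± SD of each group as bars. The 3 LPS libraries of Mrpl52 sit between 9029.9 and 10831, and the bottom row shows 4 genes whose LPS+NaBu libraries all lie below every other library.

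The next largest rises with LPS were in Mrpl39, another protein without a bacterial counterpart, and in Mrpl30, a homologue of bacterial L30. Mrpl39 went from 2486, 2464 and 2452 to 3789.6, 4029 and 3961 (0.67 ± 0.04, adjusted p = 2.9e-08), and every LPS library was above every Control library. With LPS+NaBu it was at 2721, 2662 and 2619, -0.56 on the log2 scale against LPS and 0.11 against Control (adjusted p = 0.033; 0.061 to 0.099 without any single Control library or without LPS+NaBu replicate 1 or 2). Mrpl30 rose from 3073, 2956 and 3045 to 4025, 5019 and 4670.5 (0.59 ± 0.07) and stayed at 4296, 4369 and 3949 with LPS+NaBu, where it differed from LPS by -0.12 ± 0.07 (adjusted p = 0.15). That last difference was -0.20 (adjusted p = 0.0055) without LPS replicate 1 and 0.16 (adjusted p = 0.040) with libraries scaled to the same total. Mrpl17, a homologue of bacterial L17 (0.45), Mrpl27 (0.44) and Mrpl44, which has a ribonuclease III-like fold (0.41), also rose with LPS. In all 3 the Control and LPS libraries did not overlap. These genes were named for the size of their called rise, so this is not separate support.

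The largest fall with LPS was in Mrps6, a homologue of bacterial S6 (chr16:91854965-91909592), from 2507, 2224 and 2135 to 1214, 1374 and 1316 (-0.81 ± 0.07, adjusted p = 2.9e-07). With LPS+NaBu it was at 2818, 2680.2 and 2747, above every LPS and every Control library (1.08 against LPS and 0.27 against Control). These reads cannot all be given to Mrps6 with certainty, since 52.4% of its exon bases are shared on the same strand with Slc5a3, the inositol transporter gene nested in the locus, and a further transcript. Slc5a3 was at 2369 ± 80.3, 1372 ± 183 and 2335 ± 429 (SD, n = 3), with log2 changes of -0.80 and 0.76. Mrps35 (-0.58), Mrpl51 (-0.49), Mrpl34 (-0.48), Mrps26 (-0.46), Mrpl12 (-0.44) and Mrpl41 (-0.44) also fell with LPS, each with all 3 LPS libraries below all 3 Control libraries. All but Mrpl41, which was fixed by role, were named for the size of their called fall. The lack of overlap is therefore not separate support. Mrpl34 shares 82.0% of its exon bases with a transcript on the opposite strand. Whether reads were counted by strand is not stated in the sources used. Its reads and those of that transcript therefore cannot be told apart. Of the 75 described genes with an annotated position, 14 share over 20% of their exon bases in this way. Mrpl34, Mrpl24, Mrps36 and Mrpl18 are among them.

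Butyrate moved these genes in both directions. With LPS+NaBu against LPS, 22 of the 76 were higher (28.9%), 46 were lower (60.5%) and 8 did not pass the test, with a median log2 change of -0.29. Over all genes tested 40.2% were higher and 37.8% lower, with a median of 0.02. Restricting the fit to the 12111 genes with at least 50 normalised counts in 3 libraries left the 76 at 22 higher and 46 lower and put the share of all genes at 41.5% higher and 43.1% lower. At least 2-fold rises were seen in 5 (21.4% of all genes) and at least 2-fold falls in 9 (16% of all genes). With every library scaled to the same total the all-gene median moved by 0.27 and the split of the 76 became 32 higher and 34 lower, and with trimmed-mean (TMM) scaling, which moved it by -0.10, it became 16 and 51. The median of the 76 differed from that of all genes by -0.32 under each of these scalings and by -0.24 with quantile normalization. In bulk libraries, less of a transcript in each cell and fewer cells that make it cannot be told apart.

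Both subunits and both evolutionary classes were among the genes that moved. Of 47 Mrpl symbols 13 were higher and 30 lower, and of 29 Mrps symbols 9 were higher and 16 lower. Of the 48 homologues of bacterial ribosomal proteins 15 were higher and 27 lower, and of the 28 without a bacterial homologue 7 were higher and 19 lower, a grouping from textbook knowledge that was made after the values were known. By position in the ribosome, 1 of 5 proteins at the exit tunnel was higher and 4 were lower, and 1 of 4 at the central protuberance was higher and 3 lower. At the decoding site and messenger RNA path 2 of 6 were higher and 2 lower, at the peptidyl transferase centre 1 of 4 was higher and 2 lower, and at the stalk and its base 1 of 3 was higher and 2 lower. These sites hold few genes each, and over all genes tested 40.2% were called higher and 37.8% lower. No result about a site is read from these counts. The sites belong to the same grouping as the classes.

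**Figure D2:**
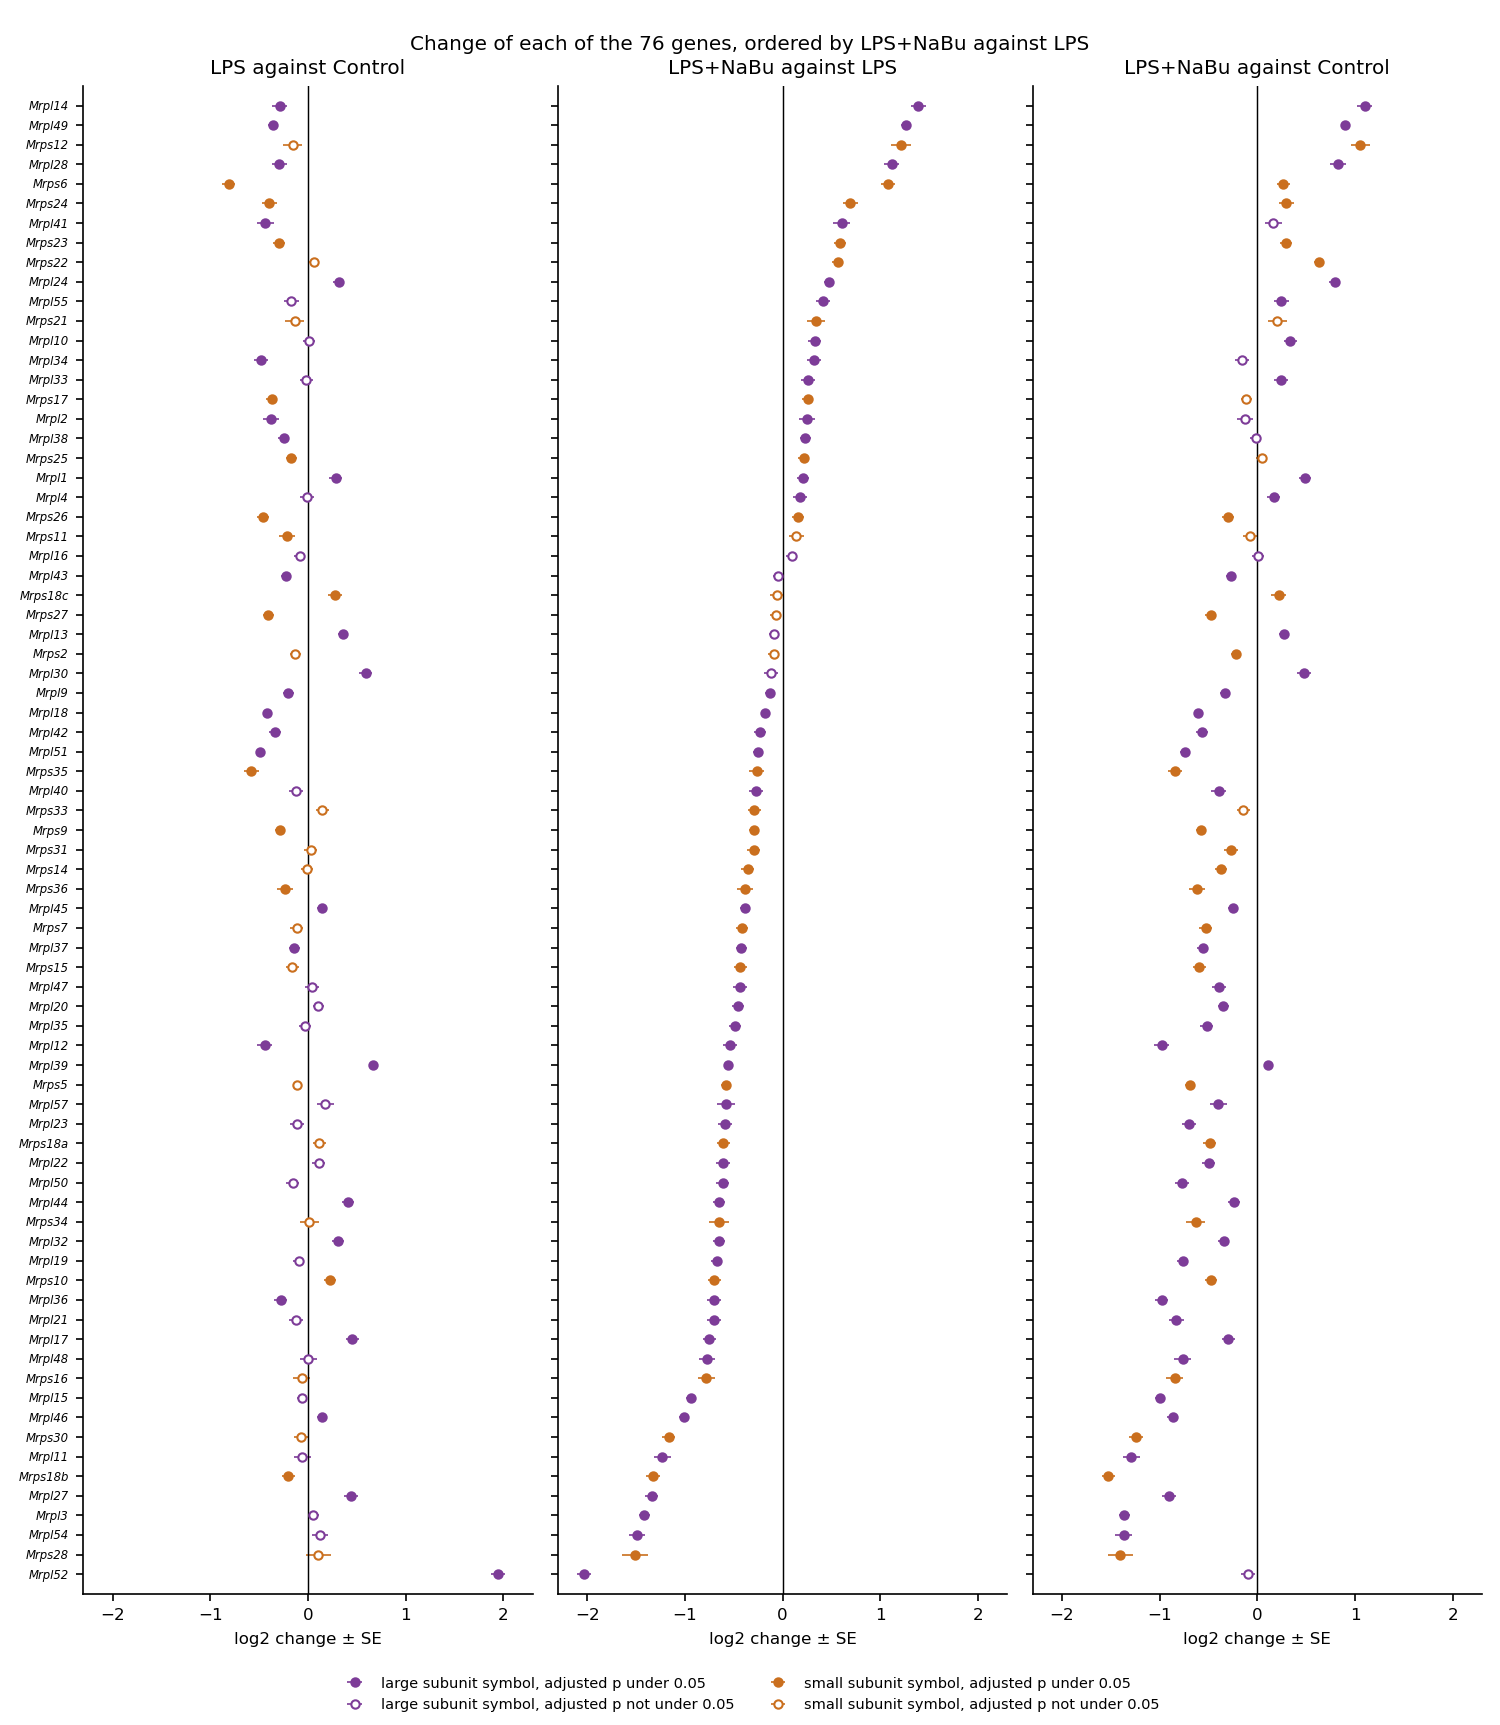
Log2 change ± SE (horizontal axes) of each of the 76 genes in the 3 comparisons, in the order of LPS+NaBu against LPS, with colour for the subunit in the symbol and filled points for an adjusted p under 0.05. In the middle panel the changes run from -2.03 (Mrpl52) to 1.39 (Mrpl14), with 46 filled points left of 0 and 22 right of it.

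The largest rise under butyrate was in Mrpl14 (chr17:45996373-46010480), a homologue of bacterial L14, which lies at the interface of the subunits. It was at 2195, 1847 and 2006 in Control, 1558, 1735 and 1647 with LPS and 4384, 4689 and 3904 with LPS+NaBu. The LPS+NaBu libraries were all above the others, 2.62-fold over LPS (1.39 ± 0.08, adjusted p = 1.9e-09) and 1.10 on the log2 scale over Control. Mrpl49, a large subunit protein without a bacterial counterpart (chr19:6103652-6107871), was at 2429, 2198 and 2335, then 1777, 1839 and 1806, then 4417, 4311 and 4272. It fell with LPS (-0.36 ± 0.05) and was 2.4-fold higher with LPS+NaBu than with LPS (1.26 ± 0.05, adjusted p = 5.2e-11), with no overlap between any groups.

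Mrps12, the homologue of the bacterial S12 protein that shapes decoding accuracy (chr7:28439066-28441680), was at 927, 850.1 and 951 in Control and 704, 921 and 835 with LPS, ranges that overlapped (-0.16 ± 0.10, adjusted p = 0.2). With LPS+NaBu it was at 2064, 1919.5 and 1699, above every other library (1.21 ± 0.10 against LPS, adjusted p = 1.0e-07). Mrpl28, a homologue of bacterial L28, went from 5816, 5264 and 5778 to 4031, 4902 and 4881 and to 10465, 10305 and 9133 (1.12 ± 0.08 against LPS, adjusted p = 1.9e-08). Further rises were in Mrps24, the homologue of bacterial S3 at the messenger RNA path (0.69 ± 0.08), in Mrpl41 (0.60 ± 0.09), in Mrps22 (0.56 ± 0.05) and in Mrpl24, at the tunnel exit (0.48 ± 0.05). Mrps22 and Mrpl24 were also above Control with LPS+NaBu (0.63 and 0.79), and their LPS+NaBu libraries lay above all other libraries. Mettl25b shares 39.8% of the exon bases of Mrpl24 on the opposite strand and also rose (0.29 against LPS).

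Apart from Mrpl52, the largest falls under butyrate took genes that LPS had moved little to levels below Control. Mrps28, a homologue of bacterial S1, was at 589.9, 456 and 565 in Control, 499, 614 and 621 with LPS and 227, 203 and 178 with LPS+NaBu (-1.51 ± 0.13 against LPS, adjusted p = 1.9e-07). The Control and LPS ranges overlapped and the LPS+NaBu libraries lay below both. Mrpl3, whose bacterial counterpart reaches the peptidyl transferase centre (chr9:104930427-104958084), was at 3774, 3894 and 3716, then 3772, 3817 and 4258, then 1516, 1405 and 1508, a 2.67-fold fall against LPS (-1.42 ± 0.06, adjusted p = 6.7e-11). Mrpl27, another protein of that centre (chr11:94544584-94552984), was the exception in having risen with LPS, from 2036, 1901 and 1943 to 2427, 2904 and 2658. It then stood at 1117, 1031 and 999 with LPS+NaBu, -1.34 against LPS and -0.90 against Control.

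Mrpl54 was at 2068, 1835 and 1966 in Control, 1845, 2197 and 2369.8 with LPS and 750.2, 779.6 and 740.1 with LPS+NaBu (-1.49 ± 0.08 against LPS, adjusted p = 2.1e-09). The tyrosine kinase gene Matk covers 75.5% of its exon bases on the opposite strand and moved the other way, from 60.3 ± 17.0 with LPS to 438 ± 27.3 with LPS+NaBu (SD, n = 3). Mrpl11, at the base of the stalk where translation factors bind, was at 2021, 2527 and 2202 with LPS and 991, 1031 and 847 with LPS+NaBu (-1.23 ± 0.09, adjusted p = 2.4e-08). Mrpl12, the stalk protein itself, which has also been described as a partner of the mitochondrial RNA polymerase, fell at each step, from 5389.8, 4568 and 5143 to 3472, 3867 and 3749.6 (-0.44 ± 0.07) and to 2645, 2707 and 2302 (-0.54 ± 0.07). The groups of Mrpl12 did not overlap. Mrps30, which structures place in the large subunit despite its name, was at 1447, 1736 and 1589 with LPS and 670.4, 726 and 723 with LPS+NaBu (-1.17 ± 0.07, adjusted p = 4.2e-09).

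The 3 Mrps18 paralogs descend from bacterial S18 and occupy different places in the ribosome. Transcripts on the opposite strand share 49.5% of the exon bases of Mrps18b and 65.7% of those of Mrps18c, the limit given above for Mrpl34. Mrps18b was at 1548, 1671 and 1558 in Control, 1349, 1454 and 1354 with LPS and 596, 521 and 542 with LPS+NaBu (-1.33 ± 0.07 against LPS, adjusted p = 9.5e-10). Its change with LPS was -0.20 (adjusted p = 0.025), and it was no longer called without Control replicate 2 (-0.16, adjusted p = 0.10), LPS replicate 1 (-0.18, adjusted p = 0.070) or LPS replicate 3 (-0.18, adjusted p = 0.075). Mrps18a, which lies in the large subunit, was at 4086, 4679.7 and 4713 with LPS and 2946, 3089.5 and 2810.03 with LPS+NaBu (-0.61 ± 0.06, adjusted p = 1.2e-06). Mrps18c was at 1458, 1805 and 1619.9 and 1609.7, 1529 and 1532, ranges that overlapped, and its difference of -0.06 ± 0.07 (adjusted p = 0.49) became 0.22 (adjusted p = 0.013) with libraries scaled to the same total. The differences between the paralogs were not tested. Of the other genes described for their roles, Mrps36, also known as a component of the 2-oxoglutarate dehydrogenase complex, changed by -0.38 ± 0.08 (adjusted p = 8.4e-04; -0.11, adjusted p = 0.23, at the same total), and Mrpl18 by -0.18 ± 0.04, which became 0.09 (adjusted p = 0.048) at the same total.

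Against Control, a comparison that shares libraries with both of those above, 18 of the 76 were higher and 47 lower with LPS+NaBu, with a median log2 change of -0.35. Over all genes tested 40.9% were higher and 35.1% lower, with a median of 0.09. The median of the 76 differed from that of all genes by -0.43, and by -0.24 with quantile normalization. Under that normalization 20 of the 76 were higher and 47 lower, against 37.3% and 41.2% of all genes. At least 2-fold rises were seen in 2 genes, Mrpl14 (1.10) and Mrps12 (1.06), against 20.7% of all genes. At least 2-fold falls were seen in 6, which were Mrps18b (-1.53), Mrps28 (-1.40), Mrpl54 (-1.37), Mrpl3 (-1.36), Mrpl11 (-1.29) and Mrps30 (-1.24), against 13.5% of all genes. Of Mrpl symbols 12 were higher and 29 lower, and of Mrps symbols 6 and 18.

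Summed over the 76 genes, the normalised counts came to 202751 ± 6578 in the Control libraries, 199792 ± 12465 in those with LPS and 178160 ± 7763 in those with LPS+NaBu (SD, n = 3 each). As a share of all normalised counts these were 0.448% ± 0.012, 0.377% ± 0.020 and 0.407% ± 0.012, so that the order of LPS and LPS+NaBu depends on which total is used. The balance of Mrpl and Mrps symbols was also taken in each library. The summed Mrpl genes over the summed Mrps genes gave 1.86 ± 0.018 in Control, 2.16 ± 0.006 in the LPS libraries and 1.98 ± 0.018 in the LPS+NaBu libraries, and no library of a group overlapped with another group. Mrpl52 was part of this, and without it the ratios were 1.82 ± 0.018, 2.005 ± 0.0098 and 1.94 ± 0.016, in the same order and again without overlap. No other gene was left out. Mrps26, which has the highest counts among Mrps symbols, averaged 9221 (Control), 6715 (LPS) and 7491 (LPS+NaBu). The mean Mrps sums that include it were 70986, 63198 and 59756. Mrps6, which shares exon bases with Slc5a3, was also kept. Whether the groups stay apart without Mrps26 or Mrps6 was not tested. Symbols are not places in the ribosome. With Mrps30 and Mrps18a counted in the large subunit, Gadd45gip1 and Ict1 added to it, and Dap3, Ptcd3, Chchd1 and Aurkaip1 added to the small subunit, as structures place these proteins, the ratios were 1.77 ± 0.0085, 2.06 ± 0.0075 and 1.78 ± 0.019. The LPS libraries again lay above all others, while the Control (1.76 to 1.78) and LPS+NaBu (1.76 to 1.80) libraries overlapped. All other genes, Mrps36 among them, stayed in the subunit of their symbol in this grouping. This grouping and the ratio without Mrpl52 were added after the values were seen. The ratio is taken within a library and does not depend on its scaling, and it is a ratio of counts, not of molecules. No p is given for sums over these genes, which were chosen with results of these data known.

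**Figure D3:**
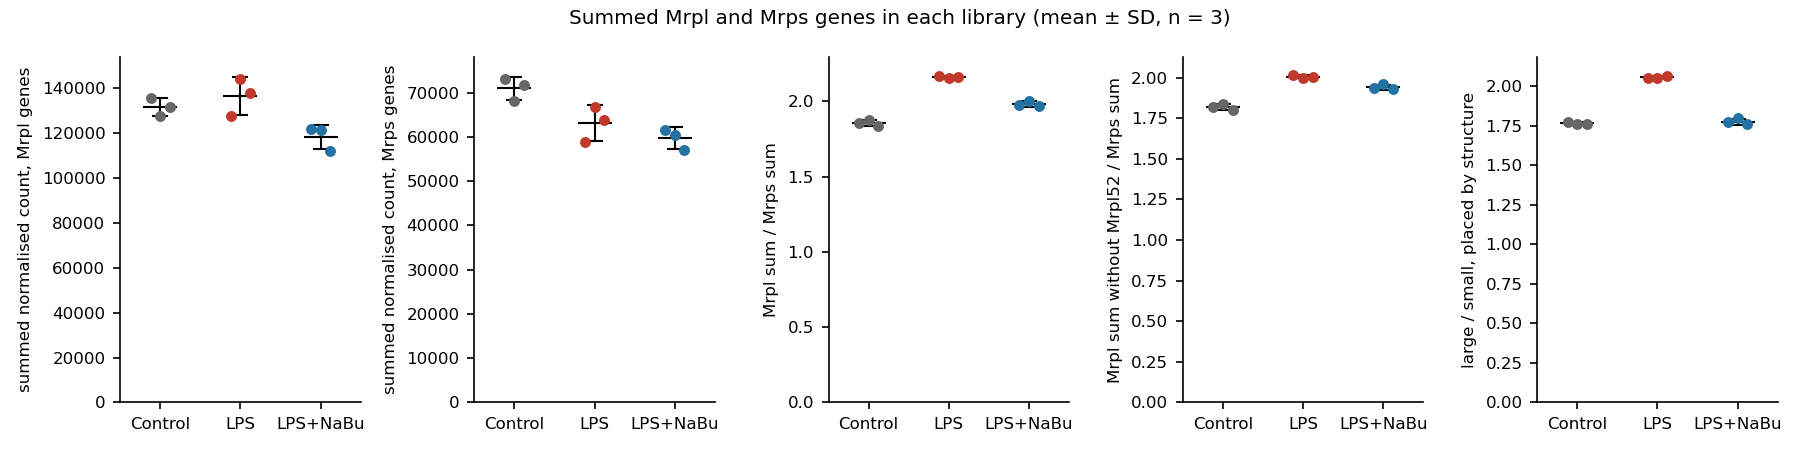
Summed normalised counts of the 47 Mrpl and the 29 Mrps genes in each library, and their ratio taken in 3 ways. The ratios are by symbol, without Mrpl52, and with the proteins named above placed by structure (vertical axes from 0, 1 point per library, bars for mean ± SD, n = 3). In all 3 ratio panels the 3 LPS libraries lie highest, and the Control and LPS+NaBu libraries stand apart in the first 2 of them and overlap in the last.

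Mitochondrial ribosomal protein genes often share a start region with another gene. For 27 of the 76 (35.5%) a protein-coding gene started within 1000 bases on the opposite strand, against 1753 of 12559 tested protein-coding genes (14.0%). In LPS+NaBu against LPS, 3 of these 27 rose with a neighbour that rose and 7 fell with a neighbour that fell. In 3 the gene rose and the neighbour fell, and in 5 the gene fell and the neighbour rose. In 9 at least 1 side did not pass the test. Over all genes tested 40.2% were higher and 37.8% lower. Whether pairs moved alike more often than these shares give was not tested. Mrpl46 and Mrps11 are each other's neighbour, so that pair is counted from both sides. Mrpl14 and the ion channel gene Tmem63b, whose starts are 7 bases apart, changed alike (1.39 and 1.34). Mrps12 and the mitochondrial seryl-tRNA synthetase gene Sars2, 129 bases apart, moved in opposite directions (1.21 and -1.11), as did Mrpl49 and Fau (1.26 and -0.41), a gene that encodes a cytosolic ribosomal protein fused to a ubiquitin-like domain. Mrpl46 and Mrps11, both members of the set and 30 bases apart, had LPS+NaBu values of 836, 831 and 809 and 1261, 1296 and 1162, after 1668, 1694 and 1631 and 1046, 1089 and 1241 with LPS. Mrpl46 was lower (-1.01 ± 0.05, adjusted p = 1.4e-09) without overlap, and Mrps11, with overlapping libraries, changed by 0.14 ± 0.08 (adjusted p = 0.12). This pair was singled out after its values were seen.

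**Figure D4:**
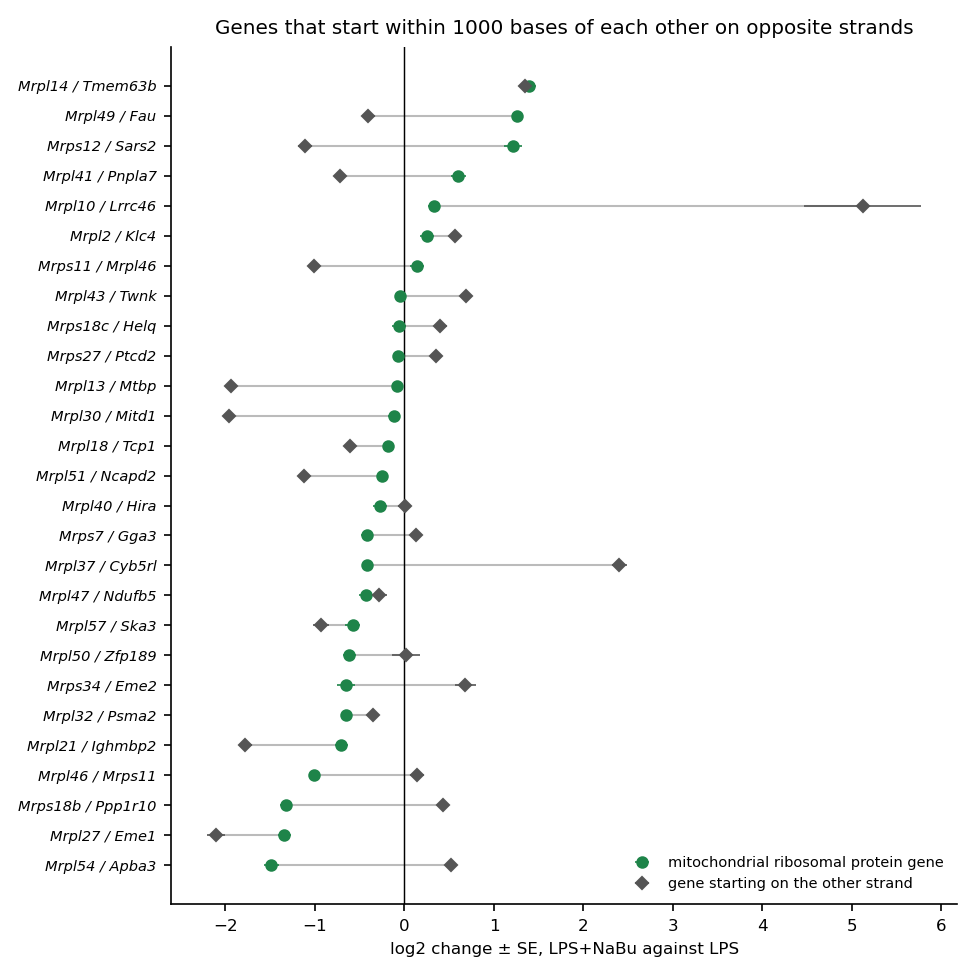
Log2 change ± SE in LPS+NaBu against LPS (horizontal axis) of 27 mitochondrial ribosomal protein genes (circles) and of the gene that starts nearest on the other strand (diamonds), each pair joined by a line. Mrps12 and Sars2 sit at 1.21 and -1.11 on either side of 0, and the Mrpl14 and Tmem63b symbols lie together at 1.39 and 1.34.

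Other parts of the mitochondrial translation system were read from the same fit, and their splits moved with the scaling. With libraries scaled to the same total, 50.1% of all genes tested were higher and 27.9% lower in LPS+NaBu against LPS, and 15.3% were higher and 47.8% lower in LPS against Control. In the first of these the lists gave 4 higher and 2 lower among 7 genes (6 mitoribosomal proteins with other symbols and Oxa1l, a membrane insertase that binds the ribosome at the tunnel exit), 13 and 8 among 29 assembly factors, 8 and 4 among 15 translation factors, 9 and 9 among 22 aminoacyl-tRNA synthetases, 6 and 9 among 22 genes for mitochondrial DNA and 6 and 11 among 17 regulators. LPS against Control at the same total gave 7, 21, 11, 20, 12 and 11 lower in the same order, and at most 4 higher in any list. The lists are short, and several of these shares lie near those of all genes (12 of 22, for example). The splits given next are those of the deposited scaling, where 25.2% of all genes were higher and 30.8% lower with LPS, and 40.2% and 37.8% with LPS+NaBu against LPS.

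Of these 7 genes, 3 were lower with LPS and the other 4 did not pass the test, and 2 were higher and 2 lower with LPS+NaBu against LPS. Dap3, the GTP-binding protein of the small subunit, was at 3700.3, 3718 and 3689.5 in Control, 3126, 3635 and 3286 with LPS and 5958, 5859 and 5639 with LPS+NaBu (0.80 ± 0.05, adjusted p = 1.4e-08), with the LPS+NaBu libraries above all others. Chchd1 (-1.08 ± 0.06) and Gadd45gip1 (-1.01 ± 0.10) fell, and Ptcd3 (-0.08 ± 0.05, adjusted p = 0.12) and Oxa1l (-0.11 ± 0.07, adjusted p = 0.14), did not pass the test. With libraries scaled to the same total the last 2 changed by 0.20 and 0.17 (adjusted p = 0.0024 and 0.027).

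Of 29 mitoribosome assembly factors 4 were higher (13.8%) and 13 lower (44.8%) with LPS, and 11 were higher (37.9%, near the share of all genes) and 14 lower (48.3%) with LPS+NaBu against LPS. Rbfa, which acts in maturation of the small subunit, was at 2995, 2724 and 2934, then 1507, 1662 and 1739, then 5095, 5047 and 4615 (-0.82 ± 0.06 and 1.59 ± 0.06). The pseudouridine synthase Rpusd4 (-1.93), the RNA-binding protein Fastkd2 (-1.52) and the GTPase Mtg1 (-1.11) fell under butyrate and Mpv17l2 rose (1.13). Of 15 translation factors 1 was higher (6.67%) and 6 lower (40.0%) with LPS, and 5 were higher (33.3%) and 6 lower (40.0%) with LPS+NaBu against LPS, the last near the share of all genes. Lrpprc and Slirp, which form a complex on mitochondrial messages, moved in opposite directions with LPS. Lrpprc went from 9968, 10451 and 9957 to 6811, 6172 and 6906 (-0.61 ± 0.05) and Slirp from 1185, 1204 and 1253 to 1748, 2069 and 1843 (0.63 ± 0.07). With LPS+NaBu Slirp was at 981, 932 and 921 (-0.99 against LPS), below Control. The elongation factor Tufm was 0.30 ± 0.07 against LPS (adjusted p = 0.0012), and the release factor Mtrf1 -0.71 ± 0.10.

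Of 22 mitochondrial aminoacyl-tRNA synthetases 2 were higher (9.09%) and 13 lower (59.1%) with LPS, and 6 were higher (27.3%) and 13 lower (59.1%) with LPS+NaBu against LPS. The enzyme for tyrosine, Yars2, was at 1703, 1860.4 and 1853 with LPS and 516, 544 and 499 with LPS+NaBu (-1.79 ± 0.06), Ears2 changed by -1.35 and the glutaminyl-tRNA amidotransferase subunit Qrsl1 by -1.24. Cars2 showed the largest fall with LPS (-1.22 ± 0.09). Of 22 genes for transcription and maintenance of mitochondrial DNA 6 were higher (27.3%) and 8 lower (36.4%) with LPS, near the shares of all genes, and 4 were higher (18.2%) and 13 lower (59.1%) with LPS+NaBu against LPS. The ribonuclease Pnpt1 was at 2691, 2778 and 2662, then 10824, 9703 and 10567, then 2939, 2908 and 3259.9, a rise of 1.93 followed by a change of -1.77. The RNA polymerase Polrmt (-0.82 and 0.98) and its partner Tfb2m (-0.996 and 0.70) fell with LPS and were higher under butyrate. The nuclease Mgme1 was lower at both steps (-0.68 and -1.85), and the packaging factor Tfam was -0.42 ± 0.05 with LPS+NaBu against LPS.

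Of 17 tested regulators of mitochondrial biogenesis 5 were higher (29.4%) and 6 lower (35.3%) with LPS, near the shares of all genes, and 3 were higher (17.6%) and 11 lower (64.7%) with LPS+NaBu against LPS. Myc was at 125, 147 and 147 in Control, 3625, 4042 and 4043 with LPS and 433, 387 and 385 with LPS+NaBu. The coactivator Pprc1 (-2.10 ± 0.04), the cofactor Hcfc1 (-2.13 ± 0.06) and the genes of 2 factors whose motifs were searched above, Nrf1 (-0.65 ± 0.05) and Gabpa (-0.66 ± 0.07), were lower with LPS+NaBu than with LPS. Ppargc1b fell with LPS (-0.68 ± 0.08) and then changed by 0.11 ± 0.08 (adjusted p = 0.26). Any part of these regulators in the changes of the mitochondrial ribosomal protein genes was not tested.

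Of 84 tested cytosolic ribosomal protein genes 43 were higher and 0 lower with LPS (median 0.17), a direction that turned with libraries scaled to the same total (11 lower) and with quantile normalization (3 and 48). The count of 0 lower is from limma, and was also 0 at an unadjusted p under 0.05 and with edgeR and DESeq2 on the recovered reads. With LPS+NaBu against LPS 1 of them was higher and 72 lower (median -0.38), against 7 and 33 at the same total and 39 and 16 with quantile normalization. Their quartiles in that comparison were -0.47 and -0.28, those of the 76 mitochondrial ribosomal protein genes were -0.65 and 0.21, and those of all genes tested were -0.65 and 0.85. Of 15 genes encoded on mitochondrial DNA 1 was higher and 7 lower with LPS, with a median of -0.36, and 8 were higher and 1 lower with LPS+NaBu against LPS, with a median of 0.36. The complex I gene mt-Nd1 went from 141115, 147149 and 135562 to 77565, 86027 and 89854 and to 129828, 132667 and 129628. Among these genes are the RNAs of the mitoribosome itself. mt-Rnr1, the ribosomal RNA of the small subunit, was at 121, 163 and 116 in Control, 345, 396 and 366 with LPS and 214, 199.6 and 236 with LPS+NaBu, and mt-Rnr2, the ribosomal RNA of the large subunit, at 387, 585 and 364, 371, 394 and 366 and 494, 626 and 682. These libraries were made for messenger RNA, so that counts of ribosomal RNA depend on how much of it was carried through.

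**Figure D5:**
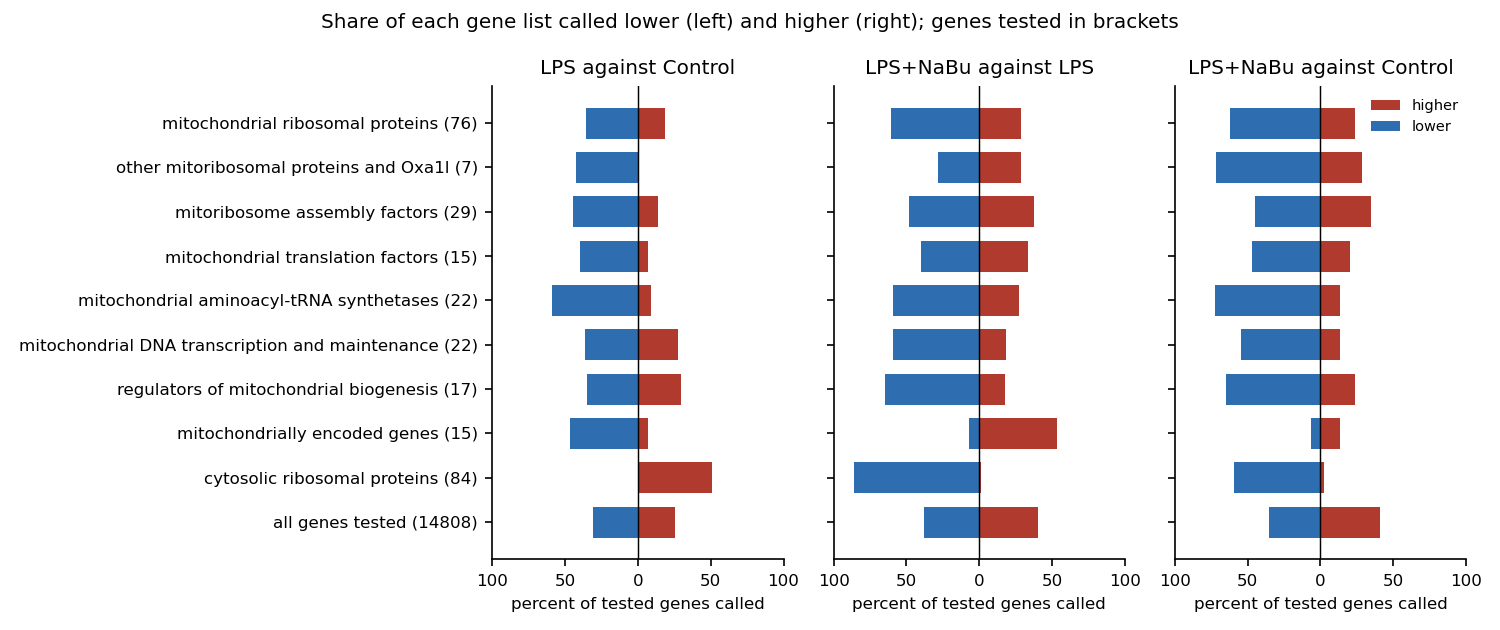
Percent of the tested genes of each list called lower (left of 0) and higher (right of 0) in the 3 comparisons, with the number of genes tested in brackets. In LPS+NaBu against LPS 60.5% of the mitochondrial ribosomal protein genes were lower and 28.9% higher, against 37.8% and 40.2% of all genes, and the cytosolic ribosomal proteins were mostly on the lower side, where quantile normalization put them on the higher side.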

How the data were processed

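RNA of RAW264.7 cells was made into 9 libraries with a directional kit and read as paired ends, and groups were taken from the labels. Per the study's methods, Trimmomatic, HISAT2 and featureCounts (unique reads) were used, whereas the submitters' processing notes list mm39, DESeq2 and, as aligner, STAR 2.7.7a. Whether reads were counted by strand is not stated in the sources used. The deposited values, labelled FPKM, are normalised signal: the authors divided each gene's count by 1 DESeq2 size factor per library, with no correction for length. In all 9 libraries 100% of values were whole multiples of 1 read's worth within 0.01, and the steps matched the size factors to a relative 3.4e-11.

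From these values log2(value + 1) was fitted with limma 3.58.1 in R 4.3.3 (a mean per group, all 9 libraries, intensity trend, two-sided), over 14808 genes with at least 10 in 3 or more libraries, and called at a Benjamini-Hochberg adjusted p under 0.05. The standard error of each gene (median 0.085 over all genes tested, log2 scale) limits what change can be called for it. This test had been planned for FPKM and was kept. edgeR 4.0.16 (quasi-likelihood; 8268 genes called for LPS over Control, 11621 for LPS+NaBu over LPS and 11334 for LPS+NaBu over Control) and DESeq2 1.42.0 on recovered reads were alternatives, as were other pseudocounts, filters and scalings, a replicate block and leaving out each library. The fit was tested on simulated data.

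Members and lists were chosen with earlier results of these data known. In each comparison the 6 largest called rises and falls are named, with 12 genes fixed by role and, from each other list, the largest called changes and 10 fixed genes, of which the text gives a part. Positions and exon overlaps are from GENCODE M39 on GRCm39 (canonical transcripts), which lacks the deposited Mrpl33 identifier. Promoter windows are from RefSeq. Protein sequences are not used here.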

Additional observations from a re-analysis of the deposited data

How the results depend on the processing

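Of 243 results for single named genes, 179 kept their direction and their side of the threshold under all 20 alternatives. Among the 76 genes lower calls outnumbered higher ones and the median was negative under all of them in each comparison, and the size of the split moved with the scaling. With libraries scaled to the same total, LPS against Control gave 7 higher and 54 lower with a median of -0.33, and LPS+NaBu against LPS a median of -0.018. TMM scaling gave medians of -0.40 for LPS+NaBu against LPS and -0.41 against Control, and edgeR on recovered reads gave -0.40 and -0.41. The shift of all genes under the first is given above, and the causes were not tested further.

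Leaving out 1 library at a time gave 12 to 17 genes higher and 22 to 34 lower with LPS, 19 to 22 and 45 to 47 with LPS+NaBu against LPS, and 15 to 20 and 47 to 48 against Control. The medians ranged from -0.14 to -0.05, from -0.36 (without LPS replicate 1) to -0.27 and from -0.38 to -0.31.

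In LPS+NaBu against LPS, changes of sign on scaling to the same total included Oxa1l (0.17), Ptcd3 (0.20), Mycn (0.23) and Rps20 (0.064). Mrps35 (0.011), Mrpl51 (0.025), Mrpl30 (0.16), Mrps18c (0.22) and Mrpl18 (0.095) changed sign there as well. In LPS against Control they included Chchd1 (-0.16), Mrpl3 (-0.17) and Mrps22 (-0.16), and this list is not complete. With quantile normalization they included Mycn (0.46) and Rps20 (0.27) in LPS+NaBu against LPS and mt-Nd3 (-0.63) in LPS+NaBu against Control.

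Libraries with the same replicate number did not deviate together (correlations of -0.044 to 0.020 across genes). A fit with the replicate block gave 13 higher and 25 lower with LPS, 20 and 45 with LPS+NaBu against LPS and 16 and 47 against Control. Each gene was called on its own standard error, which had a median of 0.085 on the log2 scale over all genes tested.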
